A study of Drosophila melanogaster with 2 samples.

Results

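Binding of the transcription factor Single-minded (Sim) was described at 8 genes that make, process, receive or restrain the ligands of the epidermal growth factor receptor (EGFR) in Drosophila melanogaster. The genes are the ligands spi, Krn and vn, the ligand-processing genes S, rho and ru, the receptor gene Egfr and the antagonist gene aos. They were chosen by name, as 8 of the 13968 protein-coding genes of the annotation, and all 8 symbols were found there. The choice was made with earlier results of these data known. The data are chromatin immunoprecipitation and sequencing (ChIP-seq) peaks from whole embryos aged 0 to 24 h of a single strain, sim-GFP, whose transgene makes Sim fused to eGFP. The 2 samples are biological replicates 1 and 2 of 1 group. An anti-GFP antibody was used, although the antibody field of the labels reads sim. Whole embryos hold all tissues, so the cells in which a site was occupied cannot be told apart. No control sample was analysed here, and read depth is unknown.

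In flies the EGFR is activated mainly by Spitz, the product of spi, which is made as a membrane-bound precursor. The chaperone Star (gene S) carries the precursor out of the endoplasmic reticulum, and rhomboid proteases such as those of rho and ru cut it so that it can be secreted. Midline cells of the embryonic nervous system, whose fate Sim controls, are a known source of secreted Spitz. Together with its partner Tango, Sim is known to bind the CNS midline element, whose core is ACGTG.

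A gene was counted as carrying a peak when a summit, the position of highest signal in a peak, lay in it or within 5 kb either side. The pooled optimal list, made from both replicates and thresholded by the irreproducible discovery rate (IDR), placed 14 of its 2682 peaks at 6 of the 8 genes. Across all protein-coding genes 30.0% carried an optimal peak, and among the 3160 genes within the members' range of lengths, 4719 to 37558 bp, 40.0% did. S had 4 peaks, aos had 3, ru, vn and Krn had 2 each, and spi had 1, while Egfr and rho had none. Genes with at least 2 peaks made up 9.30% of all genes, and 5 of the 8 were among them. This share was not taken within the members' range of lengths. The gene windows together held 6.16 summits per 100 kb, compared with 2.60 per 100 kb over the windows of all protein-coding genes. No test of this list was made. The windows of the 8 genes do not overlap, so no peak was counted at more than 1 of them.

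**Figure D1:**
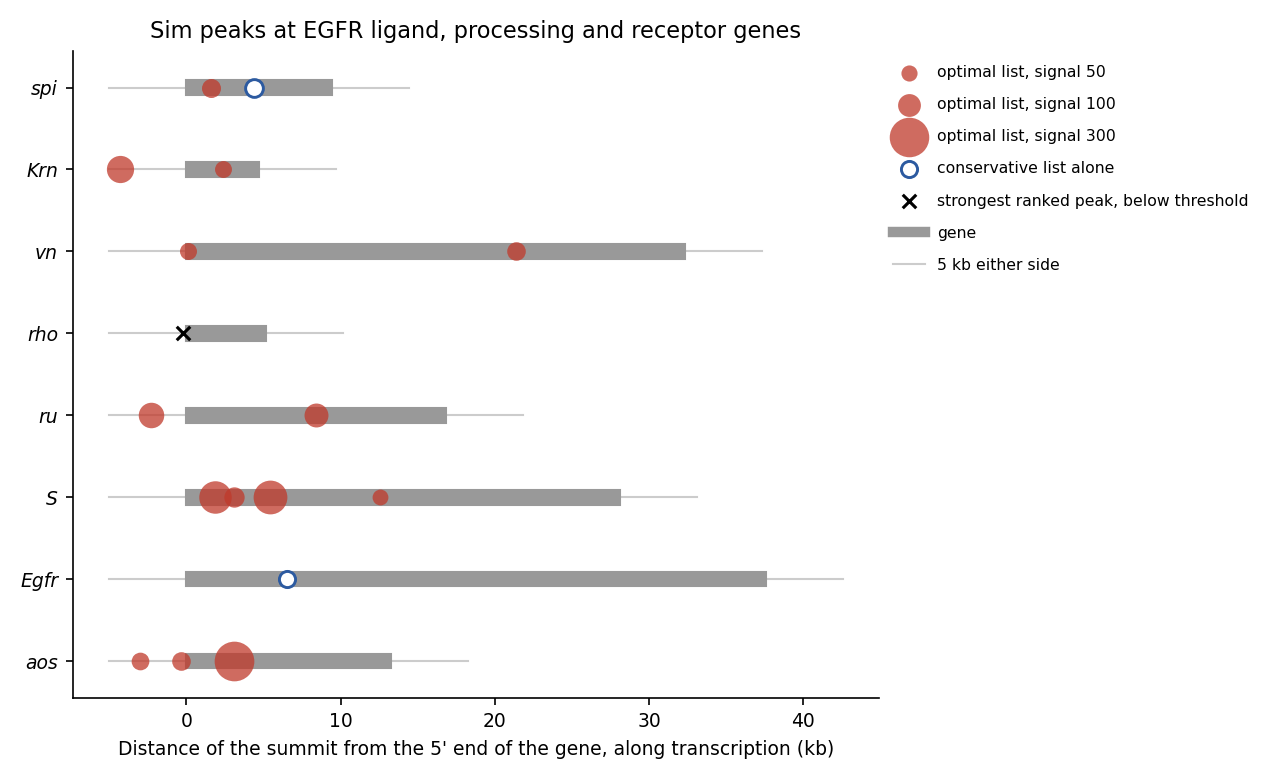
Positions of Sim summits along the 8 genes. The x axis gives the distance in kb from the 5' end of each gene in the direction of transcription, grey bars are genes with 5 kb either side, filled circles are optimal peaks with an area in proportion to their signal value, open circles are peaks of the conservative list alone and the cross is the strongest peak at rho in the pooled ranked lists, which is in no thresholded list. The 3 largest circles lie in aos (302) and S (219 and 203), downstream of the 5' ends.

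Bases around 7 summits are shown because they include the 6 strongest sites and the single optimal site of spi, the one site at which the midline element core lay near the summit. Each line gives 50 bp either side of a summit on the plus strand of the RefSeq copy of dm6. Capitals mark matches on either strand to any of 9 patterns that were searched.
spi site 1, chr2L:19575694-19575794: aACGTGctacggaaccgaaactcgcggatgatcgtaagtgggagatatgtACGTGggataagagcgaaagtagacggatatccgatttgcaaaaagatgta
Krn site 1, chr3L:17658526-17658626: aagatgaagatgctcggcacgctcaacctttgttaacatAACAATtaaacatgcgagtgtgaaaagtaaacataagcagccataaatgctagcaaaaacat
S site 1, chr2L:1072337-1072437: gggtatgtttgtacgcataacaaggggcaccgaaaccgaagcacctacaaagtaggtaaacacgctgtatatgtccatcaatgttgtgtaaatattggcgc
S site 2, chr2L:1075917-1076017: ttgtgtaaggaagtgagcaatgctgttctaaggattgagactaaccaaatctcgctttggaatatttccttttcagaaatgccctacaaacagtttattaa
ru site 1, chr3L:1368259-1368359: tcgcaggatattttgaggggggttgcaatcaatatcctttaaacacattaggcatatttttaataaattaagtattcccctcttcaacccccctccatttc
ru site 2, chr3L:1378949-1379049: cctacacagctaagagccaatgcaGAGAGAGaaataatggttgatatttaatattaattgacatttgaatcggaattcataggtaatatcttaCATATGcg
aos site 1, chr3L:16480519-16480619: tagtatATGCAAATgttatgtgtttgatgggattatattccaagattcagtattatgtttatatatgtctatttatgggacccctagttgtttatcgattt

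Of the 14 sites, only that of spi held ACGTG within 50 bp of the summit, where it occurred 2 times. The core nearer to the summit was centred 2 bp from it and preceded by T, and the other was 47 bp away and preceded by A. The 1 site was 7.14% of the 14, close to the 7.27% of all optimal peaks that held ACGTG in this window. In whole peaks ACGTG was present at 4 of the 14 sites, compared with 22.1% of all optimal peaks, and within 100 bp of the summit at 3, compared with 14.8%. The 4 sites were spi site 1, ru site 2, with a match 96 bp from the summit, aos site 2, 110 bp away, and aos site 1. At the edge of aos site 1, 96 bp from the summit, lay the palindrome CACGTG, which holds the core on both strands. The 4 sites of S, both of Krn and both of vn had no match in the whole peak.

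Each of the other 8 patterns was at 0 or 1 of the 14 sites, or at most 7.14% of them. Counts this small do not set the sites apart from the whole list. ATGCAAAT, known to be bound by POU factors, was present at aos site 1 alone and in 2.01% of all optimal peaks. AACAAT, a Sox pattern, was present at Krn site 1 alone and in 11.7% of all peaks. GAGAG, bound by GAGA factor, was found as 2 overlapping matches at ru site 2, which also held the Twist E-box CATATG. All optimal peaks held these at 12.8% and 4.66%. No site matched the homeodomain pattern TAATTA, which 9.06% of all peaks held, the Snail E-box CAGGTG (2.20%), the Su(H) pattern GTGGGAA (0.634%) or the ETS core CCGGAA (3.32%). GC content in these windows ran from 27.7% at aos site 3 to 45.5% at spi site 1, with a median of 36.6%, compared with 33.7% over all optimal peaks.

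The sites of spi, which encodes the principal ligand, lay just before its internal promoters. Its optimal peak, at chr2L:19575592-19575895, had its summit in the first intron, 157 bp upstream of an internal one of the 3 transcription start sites (TSS) annotated for spi. The deposited signal value, the strength given to each peak by the authors' peak caller, was 69.5 in the optimal list (rank 1535 of 2682). The peak over it had 37.6 in the ranked list of replicate 1 and 37.4 in that of replicate 2. The lists are not scaled to each other, and these values ranked 1234 of 96901 in replicate 1 and 1923 of 88657 in replicate 2. Neither replicate's own thresholded list held the site. Its scaled IDR scores, which run to 1000 and pass the threshold from 830, were 765 and 804 there, or an IDR of 0.0144 and 0.0116 against the 0.0100 that 830 stands for. The conservative list, the other pooled thresholded list, held a second spi peak at chr2L:19572775-19573078. Its summit was 317 bp upstream of another spi TSS, with a signal value of 60.6, a score of 847 in the conservative list and of 574 in the ranked form of the optimal list.

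At Krn, which encodes Keren, a ligand of the same kind as Spitz, the stronger site lay outside the gene. Krn site 1, at chr3L:17658424-17658727, was between genes and 4296 bp upstream of the Krn TSS. Its signal value was 142 in the optimal list, 56.5 in replicate 1 and 84.4 in replicate 2. Only the thresholded list of replicate 2 held it, but its score in replicate 1 was 829, a single unit under the lowest score listed. The nearest TSS was that of CG7484 at 3959 bp, and the windows of CG7484, Crtc and Ndfip contain the summit too. Krn site 2, at chr3L:17651763-17652066 in the first Krn intron, had a signal value of 55.1 in the optimal list, 32.7 in replicate 1 and 19.6 in replicate 2. It was in neither replicate's thresholded list nor in the conservative list, and this intron also lies in Ndfip.

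The gene vn encodes the neuregulin-like ligand Vein, known to be secreted without rhomboid cleavage. Both its sites had signal values below the median of all optimal peaks, 75.1. Site 1, at chr3L:5824129-5824432 in the first intron and 21383 bp downstream of the vn TSS, had a signal value of 66.4 in the optimal list, 34.6 in replicate 1 and 26.9 in replicate 2. The TSS nearest to site 1 was that of mad2, at 11188 bp. Site 2, at chr3L:5845443-5845746, had its summit in the 5' UTR, 69 bp downstream of the TSS, with 55.4, 27.1 and 28.2 in the same lists. Neither replicate's thresholded list held them. At site 2 the scores in the ranked replicate lists were only 68 and 46, in contrast to 999 in the optimal and 882 in the conservative list. The 3 ligand genes therefore had 5 optimal sites, of which 1 was in the thresholded list of any replicate. The share of all optimal peaks held by at least 1 replicate list was not taken, so this count is a description alone.

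Star's gene, S, carried the most sites. All 4 lay in its first intron, within 12549 bp downstream of the nearest S TSS. Site 1 (chr2L:1072349-1072436, 5424 bp from the TSS) had a signal value of 219 in the optimal list, 114 in replicate 1 and 105 in replicate 2. For site 2 (chr2L:1075904-1076016, 1844 bp from the TSS) these were 203, 87.1 and 116. Both sites were in both thresholded replicate lists and ranked 147 and 179 in the optimal list, and their order differed between the replicates. Between them lay site 3 (chr2L:1074553-1074856), with 79.3 in the optimal list, 27.6 in replicate 1 and 56.1 in replicate 2, in the thresholded list of replicate 2 alone. Site 4 (chr2L:1065110-1065413) had 48.1, 31.7 and 19.1 and was the weakest of the 14. It was in neither replicate's thresholded list, and its score was 851 in the optimal list but 572 in the ranked form of the conservative list.

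The rhomboid protease genes ru and rho, both located within the span of the phosphatase gene Ptp61F, differed in the lists. ru site 1, at chr3L:1368157-1368460 in a Ptp61F intron and 2319 bp upstream of the ru TSS, had a signal value of 125 in the optimal list, 49.2 in replicate 1 and 77.3 in replicate 2. ru site 2, at chr3L:1378847-1379150 in the first ru intron, had 110, 59.7 and 46.5 in these lists. Each was in both thresholded replicate lists with a score of 1000, and site 2 had the higher value in replicate 1 but site 1 in replicate 2. At rho, known as a target of Sim in the midline, no thresholded list held a peak within 5 kb. Its strongest peak in the pooled ranked lists, at chr3L:1463419-1463722 with its summit 240 bp upstream of the rho TSS, had a signal value of 49.9 in the ranked form of the optimal list, 31.4 in replicate 1 and 16.9 in replicate 2. The corresponding scores were 578, 460 and 123, all short of 830, and no ACGTG lay in this peak. It was also the strongest of the rho window in replicate 1, but in replicate 2 a peak at chr3L:1471151-1471430, nearest to the TSS of Naa30B, was higher at 25.3. The difference between ru and rho was not tested, and a peak short of the threshold does not show that Sim is absent from rho.

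The receptor gene Egfr, on 2R, had no optimal peak in its 37558 bp or the 5 kb either side, but the conservative list held one. That peak, at chr2R:21528788-21529091 in an intron 6520 bp downstream of the nearest Egfr TSS, had a signal value of 49.99 in the pooled lists, 26.9 in replicate 1 and 27.5 in replicate 2. Its score was 862 in the conservative list and 734 in the ranked form of the optimal list, so it fell on either side of 830 in the 2 lists. The strongest peak of the window in the pooled ranked lists lay elsewhere, at chr2R:21546488-21546791. Its summit was 3 bp from the second Egfr TSS and its signal value was 56.0 in the pooled lists, 23.7 in replicate 1 and 25.3 in replicate 2. Both pooled scores, 740 and 723, were under the threshold. The replicates ordered the window differently: in replicate 1 the peak of the conservative list was the strongest, and in replicate 2 another, at chr2R:21542504-21542783 with 33.9, was.

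The gene of the secreted antagonist Argos, aos, which EGFR signalling is itself known to induce, had the strongest site of the 8 genes. Site 1, at chr3L:16480470-16480640 in the first aos intron and 3081 bp downstream of the TSS, had a signal value of 302 in the optimal list (rank 64), 106 in replicate 1 and 187 in replicate 2. It was in all 4 thresholded lists. Site 2, at chr3L:16483836-16484139 and 338 bp upstream of the TSS, had 66.7, 30.4 and 39.1 and was in the thresholded list of replicate 1 alone. Site 3, at chr3L:16486514-16486817 and 3016 bp upstream, had 60.2, 31.2 and 30.8 and was in neither. All 3 summits also lie in introns of CG33158, a gene that spans aos.

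**Figure D2:**
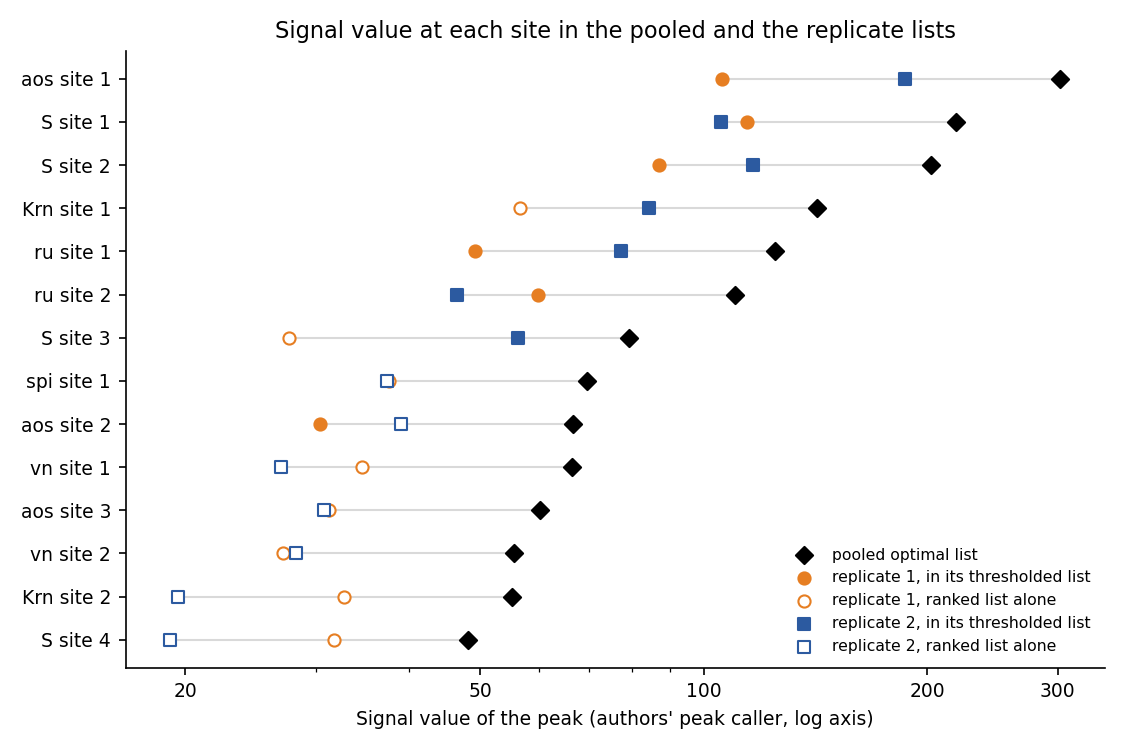
Signal value of the 14 optimal sites on a log axis. Black diamonds are the pooled optimal list, orange circles replicate 1 and blue squares replicate 2, filled where the replicate's own thresholded list held the site and open where only its ranked list did. The 3 strongest sites, aos site 1, S site 1 and S site 2, are filled in both replicates, and S site 4 is lowest in the optimal list at 48.1.

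In both thresholded replicate lists 5 of the 14 sites were overlapped, compared with 30.8% of all optimal peaks. The ranked lists of both replicates, which have no threshold and hold 96901 and 88657 peaks, overlapped all 14 sites but also 98.8% of all optimal peaks, so this overlap says little of the sites. These 5 were aos site 1, S sites 1 and 2 and both ru sites. Replicate 1 alone had 6 peaks at 3 of the 8 genes, where 15.0% of all genes carried one, and replicate 2 alone had 7 peaks at 4 genes, where 21.9% did. In the conservative list 7 of the 8 genes had a peak and 27.7% of all genes did. The replicate values of the 14 sites had a Spearman's rho of 0.684, a description of sites that share the same 2 libraries, and 7 sites had the higher value in each replicate. The lists are not scaled to each other, so these values are set side by side without a fold.

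**Figure D3:**
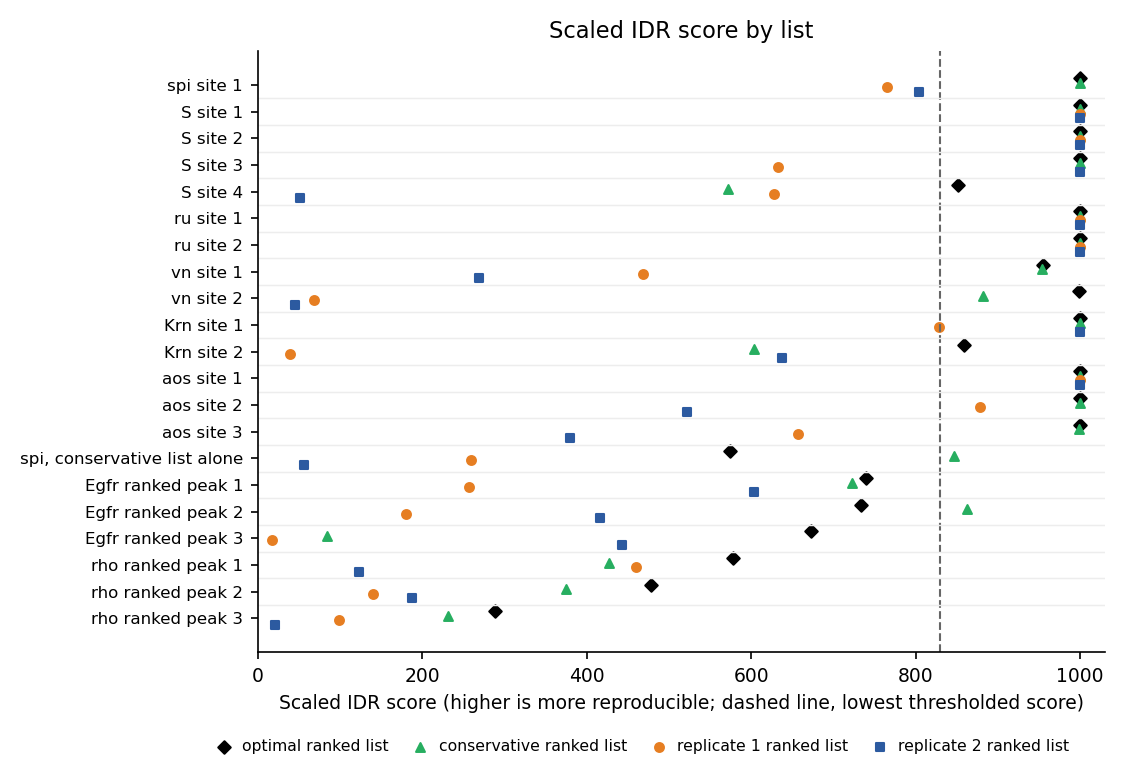
Scaled IDR score of the optimal sites, the second spi peak of the conservative list and the 3 strongest peaks of the pooled ranked lists at Egfr and at rho. Symbols are the 4 ranked lists and the dashed line is the lowest thresholded score, 830. No symbol of rho passes the line and a single symbol of Egfr does, the conservative score of 862.

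Signal values of the 14 sites ran from 48.1 to 302. Their median was 74.4, beside 75.1 over all optimal peaks, and 6 of them were among the 671 peaks of the list with the highest values. The deposited −log10 q-value, which is lower for weaker calls, was 2.12 at aos site 1, S sites 1 and 2 and Krn site 1. It was 1.16 at the only spi site, 1.02 and 0.602 at vn sites 1 and 2, and 1.03 and 0.791 at aos sites 2 and 3. At Krn site 2 it was 0.596 and at S site 4 0.344, the lowest. The ru sites had 1.97 and 1.96, and S site 3 had 1.43. By this measure the spi and vn sites were lower than these, but the spi site was above aos sites 2 and 3. These values were not compared with those of all optimal peaks. Introns of any gene held 12 of the 14 summits, compared with 1341 of all 2682, and 3 of the 14 (21.4%) lay within 500 bp of a TSS, compared with 40.3% of all. Of the 10 summits inside the 8 genes, 9 were in an intron of that gene and each was in the first. Over all protein-coding genes 46.8% of intronic summits were in first introns. First introns also made up 86.2% of the intron length of the 8 genes, but 29.2% of that of all genes, so most of their intron sequence was of this kind. Their first introns held 8.76 summits per 100 kb, compared with 3.63 per 100 kb in first introns of all genes. These are descriptions, with no test.

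The number of sites depended on the window: 10 in the genes alone, 14 with 5 kb and 16 with 10 kb either side. Within the 5 kb limit the summit farthest from its gene was Krn site 1, at 4296 bp. The nearest summit beyond the limit was 6019 bp from aos, with a signal value of 53.0 and its nearest TSS at dsx-c73A. The next was 9815 bp from spi, with 79.1 and its nearest TSS at Lar. From Egfr the nearest optimal summit was 14394 bp away and had a signal value of 53.1.

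Of 26 other genes of the pathway, 14 carried an optimal peak, again beside 30.0% of all genes. The strongest was at RasGAP1, which encodes a GTPase-activating protein of Ras, with a signal value of 324 in the optimal list, 111 in replicate 1 and 211 in replicate 2. Next came Shc, an adaptor gene, with 253, although that summit was nearest to the TSS of aay. The gene edl, whose product binds ETS factors, had 204 and the kinase gene Raf had 201 and 10 peaks in all. The remaining ligand gene, grk, which acts in the ovary, had none. Among the other rhomboid genes stet had a peak of 135, rho-7 one of 77.5 nearest to RnrS and rho-5 one of 71.7 nearest to dpr19, while rho-4 and rho-6 had none. Replicate 1 and replicate 2 alone each had peaks at 13 of the 26, where 15.0% and 21.9% of all genes carried one. First introns held 2 of the 20 intronic summits of these genes and made up 19.9% of their intron length. In the ligand, processing and receptor genes with aos they held 9 of 9 and made up 86.2%.

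**Figure D4:**
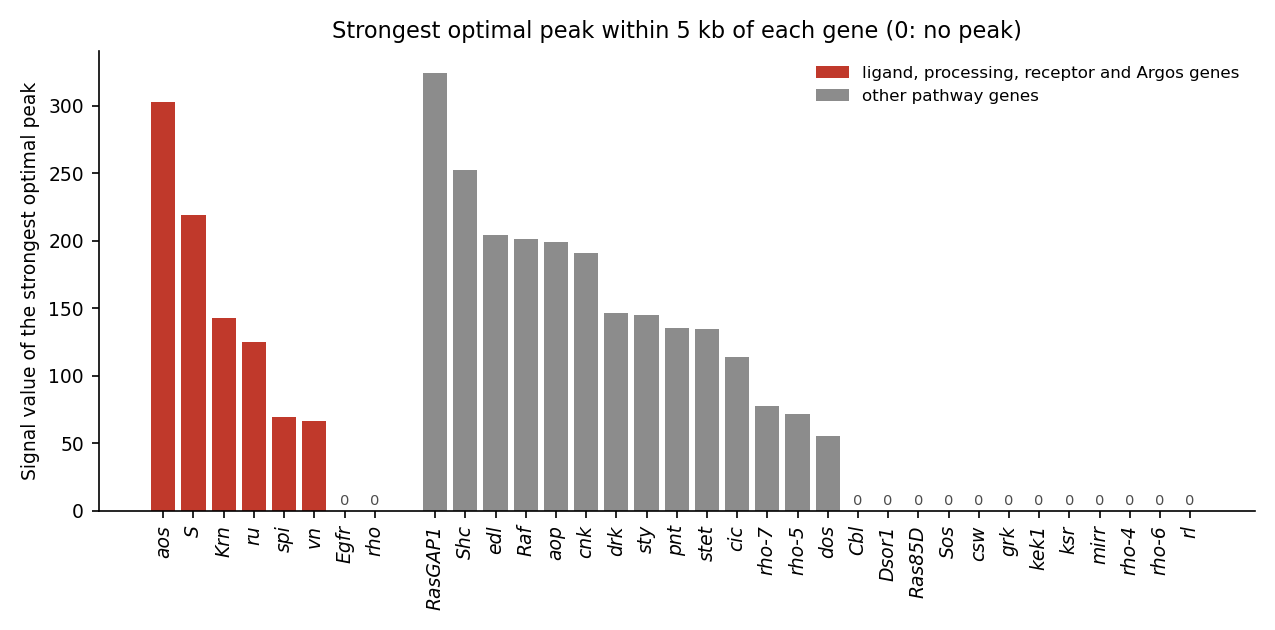
Signal value of the strongest optimal peak within 5 kb of each gene, in red for the 8 genes and in grey for the 26 other pathway genes. A 0 marks a gene with no optimal peak. The red bars run from 302 at aos to 66.4 at vn with 2 genes at 0, and the grey bars from 324 at RasGAP1 to 55.0 at dos with 12 genes at 0.

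The gene of the tagged factor, sim, had 4 optimal peaks within 5 kb, and 1.12% of all protein-coding genes had at least 4. With a peak at 30.0% of all genes, peaks at sim do not check the labels. The strongest had a signal value of 212 in the optimal list, 118 in replicate 1 and 95.4 in replicate 2, and was in both thresholded lists.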

How the data were processed

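Peaks from 2 ChIP-seq samples of 1 group were used. Per the labels, the 8 deposited lists use dm6 and hold ranked and IDR-thresholded peaks for each replicate and for both together. Per the labels, chromatin was sonicated to 200 to 800 bp. Neither the aligner nor the peak caller is named in the sources used here. The deposited signal value is the caller's peak strength, used only to describe and rank. Scores, as the authors deposited them, rise as the IDR falls and stop at 1000, and each list also holds a deposited −log10 q-value. Another 16 columns of the pooled ranked lists were not used. Depth is unknown, so no interval is given.

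Genes and TSS came from Ensembl release 115 (protein-coding, without pseudogenes or transposable elements), and bases from RefSeq. A listed pathway gene, Gap1, is annotated as RasGAP1. Replicate overlap meant at least 1 bp. Window, overlap and pattern functions were tested on simulated data. The members, gene lists and patterns were chosen with earlier results of these data known. Named genes are all members, the 4 pathway genes with the strongest peaks, every other ligand and rhomboid gene, and genes nearest to or spanning a named site. CACGTG and gene dos were named after their values were seen. No statistical test was made, because there is 1 group. Alternative windows, lists, overlaps and motif windows, and each replicate left out, were tried. Python 3.11.15, numpy 2.4.6, pandas 2.3.3 and matplotlib 3.10.9 were used.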

Additional observations from a re-analysis of the deposited data

How the results depend on the processing

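The count of 6 genes with a peak was the same with the genes alone, 1 kb or 10 kb either side, any base of the peak in the window, the nearest TSS and merged peaks. It was 7 in the conservative list, where 27.7% of all genes had a peak. The share of all genes was taken with 5 kb either side only. The unchanged count of genes therefore does not show how the 8 genes stand beside all genes in the other windows. The count of peaks did change: 10 in the genes alone, 11 with 1 kb, 14 with 5 kb and 16 with 10 kb either side. By the nearest TSS it was 12. Leaving out a replicate gave 3 to 4 genes and 6 to 7 peaks, in place of 6 and 14: without replicate 1, spi and vn had no peak, and without replicate 2, Krn had none either. The replicate lists are shorter, with 1071 peaks in replicate 1 and 1676 in replicate 2 compared with 2682. The share of all genes with a peak was lower in them too, at 15.0% and 21.9% compared with 30.0%. The 1341 strongest peaks of the optimal list held 7 of the 14 peaks, at 4 of the genes, and the share of all genes was not taken for this part of the list. Of the other pathway genes, 8 in place of 14 had a peak in the gene alone and 10 by the nearest TSS, and the shares of all genes were not taken for these settings. All 14 sites overlapped peaks of both replicates in the ranked lists, as did 98.8% of all optimal peaks, in place of 5 in the thresholded ones. ACGTG was at 1 site within 50 bp (7.27% of all optimal peaks), at 3 within 100 bp (14.8%) and at 4 in the whole peak (22.1%). Within 50 bp, leaving out replicate 1 gave 0 peaks with ACGTG and leaving out replicate 2 gave 1. That 1 was not the spi site, because spi had no peak in either replicate's thresholded list. No paired analysis was possible because there is a single group. With depth unknown, a gene without a peak is not shown to be unbound.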

Other observations

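A rhomboid gene beside rho carried a clear peak. The optimal summit nearest to rho lay 10528 bp outside that gene and had its nearest TSS at stet, 531 bp away, in an intron. Its signal value was 135 in the optimal list, 61.0 in replicate 1 and 72.4 in replicate 2, and it was in both thresholded lists. It is counted at stet and not at rho.

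The strongest sites were narrow. Peaks at S site 1 (88 bp), S site 2 (113 bp) and aos site 1 (171 bp) were narrower than the 304 bp that the other 11 sites share with most of the list. Of all optimal peaks 7.76% were narrower than 304 bp, and 31.0% of the strongest 671 were.

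At Egfr the third-strongest peak of the pooled ranked lists, 3995 bp upstream of an internal TSS, held 2 matches to ACGTG, while the other 2 named there held none. Its signal value was 43.5 in the pooled lists, 10.9 in replicate 1 (rank 50323) and 33.9 in replicate 2 (rank 2395), where it was the strongest of the window. Its scores were 673 in the ranked form of the optimal list and 85 in that of the conservative list. No thresholded list held it. The TSS nearest to its summit was that of CG30283, at 2075 bp. Among all optimal peaks 22.1% held ACGTG in the whole peak.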
